A study of Oryctolagus cuniculus with 16 samples.

Results

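Chemokines and their receptors were read out in vaginal tissue of female rabbits of the New Zealand White breed. The members were all genes of the count table with the symbol of a chemokine, a chemokine receptor or an atypical chemokine receptor, leaving out CXCL8, CXCR1, CXCR2 and CCR7, which are not described here. That gave 28 of 13001 named genes. The 14 ligands were CCL2, CCL11, CCL14, CCL19, CCL20, CCL21, CCL22, CXCL5, CXCL9, CXCL10, CXCL11, CXCL13, CXCL17 and CX3CL1. The 14 receptors were CCR1, CCR6, CCR8, CCR9, CCR10, CXCR3, CXCR4, CXCR5, CXCR6, CX3CR1, XCR1, ACKR2, ACKR3 and ACKR4. Of the 28 members, 25 passed the filter on low counts and were tested. CCL20, CCR9 and CCR10 did not pass it.

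All animals were juvenile, aged 17 to 19 weeks. The 6 control libraries (control 2, 9, 16, 24, 25 and 29) came from native vagina without surgery, and the 3 sham libraries (sham 11, 12 and 14) from vagina after a sham operation. The 3 acellular libraries (acellular 6, 8 and 10) came from animals with a graft holding no cells, and the 4 PLATE libraries (PLATE 1, 5, 9 and 13) from animals whose graft carried tissue particles. Both graft groups were sampled 10 mm away from the graft and not in it. The sampling distance of control and sham tissue and the time after surgery are not given in the sources used here, so graft and sampling site cannot be told apart against these groups. Library numbers are the animal numbers of the labels. The number 9 occurs in control and in PLATE, and the labels do not say whether that was the same animal.

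Chemokines are small secreted proteins that steer leukocytes through G protein-coupled receptors. Inflammatory chemokines are made on demand, CXCL9, CXCL10 and CXCL11 in answer to interferon and CXCL5 and CCL2 in answer to signals such as interleukin 1, whereas homeostatic chemokines such as CCL19, CCL21 and CXCL13 place lymphocytes within lymphoid tissue. Atypical receptors bind chemokines without G protein signalling and take them up. In the vaginal mucosa this system governs the entry and the residence of T cells, antigen-presenting cells and neutrophils.

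Polyadenylated RNA was sequenced to 20992063 to 30695000 counts per library, of which 15348880 to 23236339 fell on named genes. Levels are given in CPM, the counts of a gene relative to all named-gene counts of its library after scaling by TMM factors, and 1 count was worth 0.0400 to 0.0900 CPM. Markers of the tissue were found in every library, with summed levels of 8904 to 155524 CPM for 5 smooth muscle markers and 9654 to 33274 CPM for 7 fibroblast markers. Libraries that stood apart were control 2, control 9 and PLATE 1. Control 2 had the highest smooth muscle sum, the lowest sum of 5 columnar epithelial markers (13.2 CPM, against 182 to 1135 elsewhere) and a scaling factor of 0.592. PLATE 1 had the highest sums of T cell, B cell, plasma cell, macrophage, neutrophil and dendritic cell markers. Control 9 ranked the second or the third highest of 16 in these sums. Results that rest on these libraries are given with and without them.

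The members varied more between libraries than genes did in general. The median SD of log2 CPM over the 16 libraries was 1.41 for the 25 members and 0.43 for all 10942 genes tested. PLATE 1 was the highest of the 16 libraries for 9 of the 25 members and the lowest for 3. The 9 were the ligands CCL11, CCL14, CCL22, CXCL5 and CXCL13 and the receptors CCR1, CCR6, CXCR4 and CXCR5, and the 3 were CCL21, CX3CL1 and ACKR2. Acellular 8 and acellular 10 were each the highest for 5 members. Control 2 was the lowest for 7 members, namely CXCL9, CXCL10, CXCL11, CXCL17, CXCR3, CXCR6 and XCR1. The 3 sham libraries were the highest for none. In the map of all members by library, CXCL9, CXCL10 and CXCL11 are high in acellular 8, acellular 10, PLATE 5, PLATE 13 and control 9. CXCR3, CXCR6 and XCR1 are high in these and in PLATE 1.

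**Figure D1:**
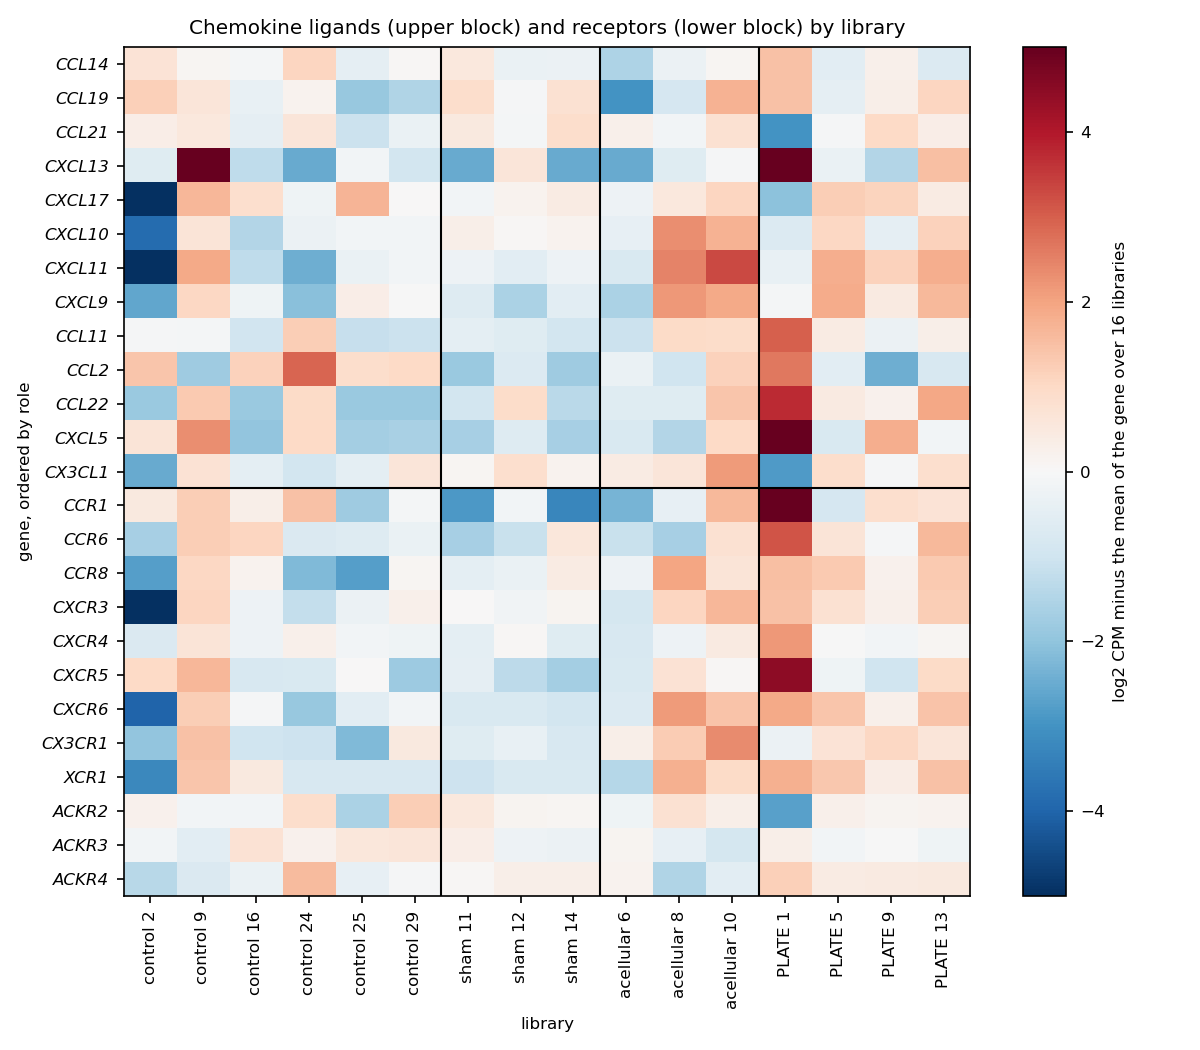
Heat map of 25 members (lines) in 16 libraries (columns, by group); colour is log2 CPM minus the mean of the gene over the 16 libraries, with values beyond 5 in either direction drawn in the end colours. PLATE 1 is the highest library for 9 members and control 2 the lowest for 7.

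CXCL9, CXCL10 and CXCL11 are the ligands of CXCR3, the receptor that brings activated T cells to inflamed tissue, and in the RefSeq gene table of assembly mOryCun1.1 the 3 genes lie next to each other with no protein-coding gene between them. CXCL9 ran from 1.44 to 18.9 CPM in control (median 8.45, n = 6), stood at 5.87, 3.02 and 6.34 CPM in sham 11, 12 and 14, at 3.01, 42.0 and 35.0 in acellular 6, 8 and 10, and at 8.73, 34.0, 12.6 and 28.2 in PLATE 1, 5, 9 and 13. CXCL10 ran from 1.98 to 47.7 CPM in control (median 25.8), and in the same library order stood at 37.2, 31.4 and 34.0 in sham, 22.4, 149 and 101.7 in acellular, and 18.5, 62.3, 21.7 and 67.4 in PLATE. CXCL11 ran from 0.0900 to 49.3 CPM in control (median 7.87), and stood at 11.0, 9.10 and 11.1 in sham, 7.62, 74.4 and 131 in acellular, and 10.2, 46.9, 29.1 and 47.1 in PLATE. For each of the 3 ligands the 5 highest libraries were the same: acellular 8, acellular 10, PLATE 5, PLATE 13 and control 9. Acellular 6, PLATE 1 and PLATE 9 stayed within the control range for all 3, so both graft groups overlapped control. For CXCL11 all 4 PLATE libraries stayed within it. CXCL9 was higher in all 4 PLATE libraries than in all 3 sham libraries, as were 7.91% of all genes.

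On average the 3 ligands were higher in acellular than in control. CXCL11 differed by 2.41 ± 0.98 (log2, SE; adjusted p = 0.827 by edgeR), CXCL10 by 1.97 ± 0.67 and CXCL9 by 1.64 ± 0.74, each with the same adjusted p. The CXCL10 difference was 1.41 without acellular 8 and 2.43 without acellular 6. The CXCL11 difference was 1.62 without acellular 10 and 3.55 without control 9. Against sham, acellular CXCL9 differed by 2.39 ± 0.93 (adjusted p = 0.902 by edgeR). The PLATE group, set against the same control libraries, differed by 1.33 ± 0.92 for CXCL11, 0.87 ± 0.63 for CXCL10 and 1.29 ± 0.69 for CXCL9 (adjusted p = 0.998 for each by edgeR). No difference passed the threshold of 0.05.

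CXCR3 itself was counted at 0 in control 2 and ran up to 7.40 CPM in control (median 2.88), and stood at 3.49, 3.06 and 3.83 in sham, 1.87, 7.53 and 11.3 in acellular, and 9.77, 5.98, 4.18 and 8.41 in PLATE. All 4 PLATE libraries were above all 3 sham libraries, and both overlapped control. CXCR6, a receptor of tissue-resident T cells, ran from 1.17 to 47.7 CPM in control (median 16.2), and stood at 11.9, 12.0 and 10.7 in sham, 12.4, 89.3 and 54.9 in acellular, and 74.6, 52.4, 23.9 and 54.5 in PLATE. Every acellular and every PLATE library was above every sham library, acellular 6 by a small margin. Such a separation from sham was found for 7.82% of all genes in acellular and 7.91% in PLATE. XCR1, which marks cross-presenting dendritic cells, had 3.29 to 8.80 CPM in PLATE and 1.16 to 1.44 in sham without overlap, while acellular (0.866 to 8.80 CPM) and control (0.180 to 6.68 CPM) spanned both. XCR1 and CXCR6 are near neighbours in the RefSeq table, with 1 protein-coding gene between them.

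For CXCR6 the mean difference from sham was 2.18 ± 0.90 in acellular (log2, SE; adjusted p = 0.902 by edgeR) and 2.15 ± 0.87 in PLATE (adjusted p = 0.657 by edgeR). From control it was 1.56 ± 0.72 in acellular (0.92 without acellular 8) and 1.53 ± 0.67 in PLATE (1.30 without PLATE 1). The acellular and PLATE means of CXCR6 were 52.2 ± 38.5 (SD, n = 3) and 51.3 ± 20.9 CPM (SD, n = 4), against 11.5 ± 0.716 in sham (SD, n = 3) and 17.7 ± 16.4 in control (SD, n = 6). The libraries with the highest CXCR6 levels also had high sums of T cell markers. PLATE 1 had the highest of these sums, but CXCL9, CXCL10 and CXCL11 stayed within the control range there. They did so in acellular 6 and PLATE 9 too. The summed level of 7 T cell markers was 69.5 and 81.8 CPM in acellular 8 and 10 but 24.7 in acellular 6, 65.5 to 125 in PLATE 1, 5 and 13 but 44.0 in PLATE 9, 23.8 to 29.7 in sham, and 3.69 in control 2 to 90.0 in control 9. Their part in the levels of CXCR3, CXCR6 and the 3 ligands was not tested. In whole tissue, more or fewer cells of a type and more or less RNA per cell cannot be told apart.

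**Figure D2:**
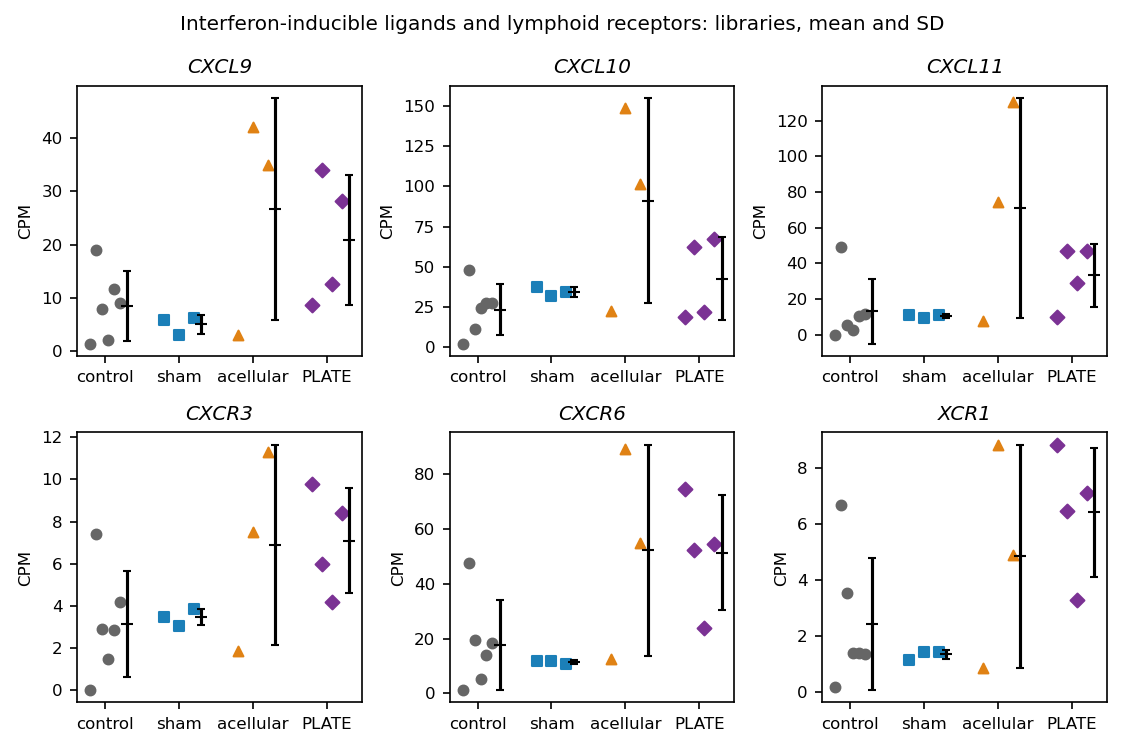
CPM (linear axis) of CXCL9, CXCL10, CXCL11, CXCR3, CXCR6 and XCR1 in each library by group, with the group mean and SD as a line and bar. Acellular 6 lies apart from acellular 8 and acellular 10 in each panel, and the 3 sham libraries lie close together.

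Interferon gamma is the main inducer of CXCL9, and IFNG was counted 0 to 72 times per library. IFNG had at most 0.440 CPM in the control libraries, whereas the ranges were 0.239 to 2.96 CPM for sham, 0.410 to 2.49 for acellular and 0.418 to 1.55 for PLATE. The mean of the 3 operated groups was higher than control by 2.36 ± 0.77 (log2, SE; adjusted p = 1.00 by edgeR). The highest IFNG level was in sham 14, where CXCL9 stood at 6.34 CPM, and acellular 8 came next.

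CX3CL1 is held on the surface of epithelial and endothelial cells and binds CX3CR1, the receptor of patrolling monocytes, macrophages and cytotoxic lymphocytes. CX3CL1 ran from 1.71 to 16.9 CPM in control (median 7.20), and stood at 10.8, 18.1 and 11.5 in sham, 13.5, 15.5 and 44.1 in acellular, and 1.36, 18.7, 9.73 and 18.0 in PLATE. CX3CR1 ran from 1.35 to 18.2 CPM in control (median 3.19), and stood at 4.33, 5.07 and 3.75 in sham, 8.07, 16.2 and 34.5 in acellular, and 5.30, 10.7, 13.7 and 10.1 in PLATE. All 7 graft libraries were above the 3 sham libraries for CX3CR1, PLATE 1 by a small margin, and acellular 10 was the highest library for both genes. Of all genes, 7.82% were so separated from sham in acellular and 7.91% in PLATE. CX3CL1 was lowest in PLATE 1 and next lowest in control 2, the libraries with the 2 lowest sums of columnar epithelial markers (182 and 13.2 CPM). The part of the epithelial share in CX3CL1 was not tested.

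CX3CR1 differed by 2.16 ± 0.83 between acellular and sham (log2, SE; adjusted p = 0.902 by edgeR) and by 1.67 ± 0.67 between acellular and control (adjusted p = 0.827 by edgeR). The difference from control was 0.97 without acellular 10 and 2.38 without control 9, and that from sham was 1.47 without acellular 10. CX3CL1 was 1.44 ± 0.67 higher in acellular than in control on average (0.68 without acellular 10). In PLATE, CX3CR1 differed from sham by 1.18 ± 0.77 (adjusted p = 0.703) and from the shared control libraries by 0.69 ± 0.63 (adjusted p = 0.998, both by edgeR).

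A further set of members stood apart in PLATE 1. CXCL5, a neutrophil attractant made by epithelial and stromal cells, ran from 1.63 to 34.1 CPM in control (median 6.26), and stood at 2.05, 4.26 and 2.02 in sham, 3.88, 2.35 and 13.4 in acellular, and 318, 3.89, 23.5 and 6.10 in PLATE 1, 5, 9 and 13. CCR1, a receptor of monocytes and neutrophils for inflammatory CC chemokines, ran from 0.518 to 5.68 CPM in control (median 2.70), and stood at 0.186, 1.82 and 0.124 in sham, 0.319, 1.48 and 6.36 in acellular, and 72.9, 1.09, 3.66 and 3.30 in PLATE. PLATE 1 exceeded the control range for both genes and acellular 10 for CCR1 by a small margin, whereas PLATE 5, 9 and 13 lay inside it.

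CXCL13, the B cell attractant of lymphoid follicles, ran from 0 to 27.2 CPM in control (median 0.237), and stood at 0, 0.766 and 0 in sham, 0, 0.269 and 0.444 in acellular, and 122, 0.349, 0.105 and 1.52 in PLATE. CXCR5, its receptor on B cells and follicular helper T cells, ran from 0.102 to 2.16 CPM in control (median 0.474), and stood at 0.419, 0.191 and 0.124 in sham, 0.319, 1.08 and 0.641 in acellular, and 15.7, 0.524, 0.262 and 1.28 in PLATE. PLATE 1 and control 9 were the 2 highest libraries for both CXCL13 and CXCR5. The sum of 6 B cell markers was 289 CPM in PLATE 1 and 50.9 in control 9, and the highest sum in a sham or acellular library was 13.4. The part of B cells in these levels was not tested.

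CXCR4, which holds lymphocytes and other leukocytes in tissue, stood at 107.8 CPM in PLATE 1 and at 13.7 to 37.3 in the other 15 libraries. CCL21, made by lymphatic vessels to guide dendritic cells and T cells, went the other way, with 17.2 CPM in PLATE 1 and 65.8 to 278 elsewhere. The sum of 4 lymphatic endothelial markers was 76.2 CPM in PLATE 1, within the 39.9 to 269 CPM of the control libraries. The part of lymphatic vessels in the CCL21 level was not tested. CCL19, the neighbour of CCL21 in the RefSeq table and a ligand of the same receptor, stood at 3.10 CPM in PLATE 1, behind acellular 10 with 3.75. CCL22, which attracts regulatory and helper T cells, was at 0 in 4 of 6 control libraries and reached 4.66 CPM in PLATE 1 against at most 1.28 elsewhere. CCR6, a receptor of memory T cells and B cells, reached 2.72 CPM in PLATE 1 against at most 0.885 elsewhere.

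**Figure D3:**
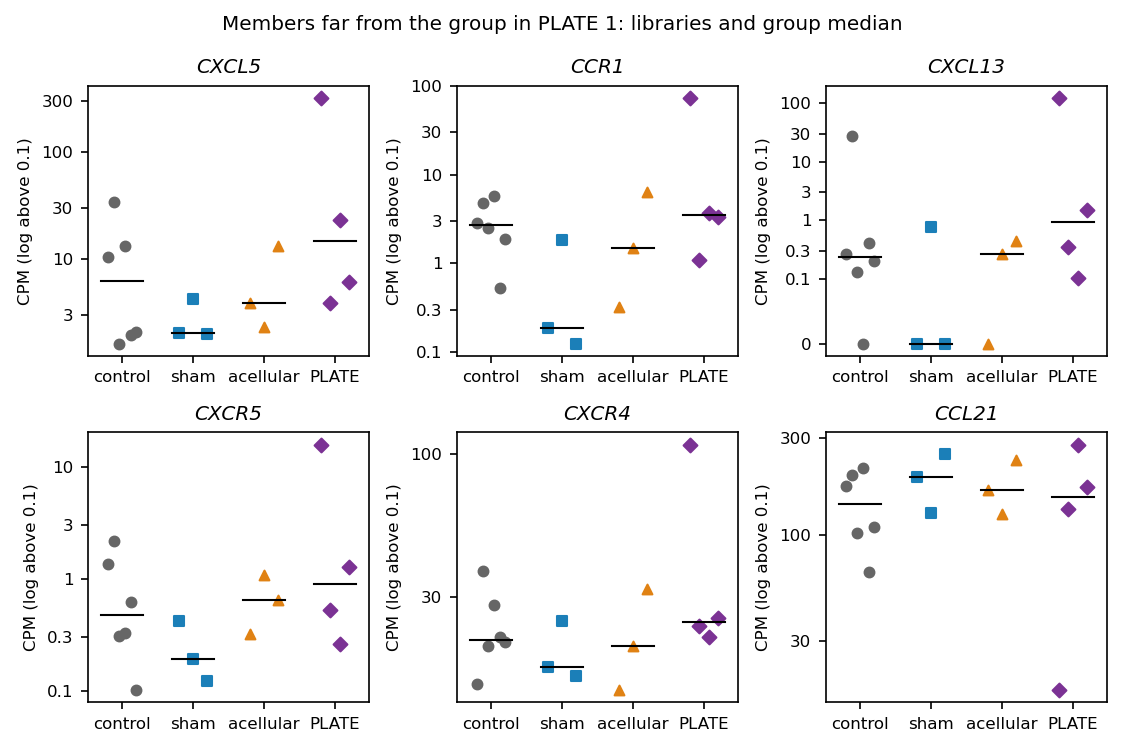
CPM of CXCL5, CCR1, CXCL13, CXCR5, CXCR4 and CCL21 in each library by group (log axis above 0.1 CPM, linear from 0 to 0.1), with a bar at the group median. PLATE 1 is the highest library in the first 5 panels and the lowest for CCL21.

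In PLATE against control, CXCL5 differed by 3.05 ± 1.11, CCR1 by 2.72 ± 1.08 and CXCR5 by 2.44 ± 0.99 (log2, SE; adjusted p = 0.998 for each by edgeR). Without PLATE 1 the differences were 0.07 for CXCL5, -0.19 for CCR1 and -0.23 for CXCR5. Against sham they were 4.98 ± 1.62 for CXCL5, 4.83 ± 1.59 for CCR1 and 4.14 ± 1.40 for CXCR5 (adjusted p = 0.657 for each by edgeR), and 2.00, 1.92 and 1.48 without PLATE 1. Against acellular they were 3.74 ± 1.51 for CXCL5, 7.02 ± 3.02 for CXCL13 and 2.70 ± 1.29 for CXCR5 (adjusted p = 0.875 for each by edgeR), and 0.76, 1.47 and 0.04 without PLATE 1. CXCL13 in sham was lower than in control by a fitted -4.23 ± 2.63 (adjusted p = 0.963 by edgeR), a value that was 0.33 without control 9 and -9.57 without sham 12, which leaves sham with libraries at 0 only. CCR1 in sham against control gave -2.11 ± 1.36 (adjusted p = 0.963 by edgeR), and -4.26 without sham 12. IL1B, an inducer of CXCL5, was at 1894 CPM in PLATE 1 and at most 106.2 in any other library, and 5 neutrophil markers summed to 3410 CPM in PLATE 1 and at most 1128 elsewhere. Their part in CXCL5 and CCR1 was not tested.

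CCL2, the main attractant of monocytes, was higher on average in control than in each operated group. It ran from 1.56 to 42.9 CPM in control (median 12.0), and stood at 1.49, 3.45 and 1.56 in sham 11, 12 and 14, 4.38, 2.75 and 12.5 in acellular 6, 8 and 10, and 35.2, 3.84, 0.941 and 3.20 in PLATE 1, 5, 9 and 13. Of the 6 control libraries, 5 were above 10 CPM, and control 9, with 1.56 CPM, lay among the sham libraries. PLATE 1 and acellular 10 were the operated libraries above 10 CPM. Sham and control differed by -2.85 ± 1.12 (log2, SE; adjusted p = 0.963 by edgeR), and by -2.22 without control 24. The mean of the 3 operated groups differed from control by -1.54 ± 0.69 (adjusted p = 1.00 by edgeR), by -0.92 without control 24, and by -2.52 without control 2, control 9 and PLATE 1 (adjusted p = 0.331 by edgeR). The last setting leaves out the lowest control library, control 9, and the highest operated library, PLATE 1, beside control 2 at 14.8 CPM. A larger difference there follows from that choice.

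CCL11, the eosinophil attractant, lies close to CCL2 in the RefSeq table, with 1 protein-coding gene between them. Its mean was not higher in control than in each operated group, but PLATE 1 and control 24 were the 2 highest libraries for both genes. CCL11 stood at 28.1 CPM in PLATE 1, at 8.23 in control 24 and at 1.50 or more in all libraries. PLATE and control differed by 1.60 ± 0.66 (log2, SE; adjusted p = 0.998 by edgeR), and by 0.25 without PLATE 1. All 4 PLATE libraries (2.77 to 28.1 CPM) were above the 3 sham libraries (1.77 to 2.42 CPM), as for 7.91% of all genes. In that table CCL2, CCL11, CCL14, CCL19, CCL20, CCL21, CCR6, CXCR3 and ACKR3 lie beside genes with a locus number in place of a name. Whether these are copies was not examined, and reads shared with near-identical copies cannot be judged from the deposited counts.

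CCL14, a constitutive ligand of CCR1, had a mean of 22.6 ± 9.17 CPM in control (SD, n = 6), 18.3 ± 6.72 in sham (SD, n = 3), 13.5 ± 6.79 in acellular (SD, n = 3) and 24.0 ± 18.5 in PLATE (SD, n = 4), with the extremes at 6.16 in acellular 6 and 50.8 in PLATE 1. CXCL17, a mucosal epithelial chemokine, ran from 162 to 628 CPM in 14 of the 16 libraries and stood at 2.16 in control 2 and 47.5 in PLATE 1. Those were again the 2 libraries with the lowest columnar epithelial sums, and the part of the epithelial share in CXCL17 was not tested. CCR8, a receptor of skin and regulatory T cells, was at 0 in control 2 and control 25, with means of 0.433 ± 0.515 CPM in control (SD, n = 6), 0.529 ± 0.222 in sham (SD, n = 3), 1.32 ± 1.10 in acellular (SD, n = 3) and 1.41 ± 0.499 in PLATE (SD, n = 4). The difference between PLATE and control was 1.64 ± 0.89 (log2, SE; adjusted p = 0.998 by edgeR).

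The atypical receptors had no common order. ACKR3, a scavenger of CXCL11 and of the CXCR4 ligand, ran from 9.12 to 21.9 CPM in control (median 17.6), and stood at 16.9, 11.3 and 10.8 in sham, 14.5, 10.1 and 7.30 in acellular, and 16.6, 12.1, 13.3 and 11.5 in PLATE. Of the control libraries, 4 were above 15 CPM and the remaining ones, control 2 and control 9, were at 12.2 and 9.12 CPM, inside the range of the operated libraries. Sham 11 and PLATE 1 were above 15 CPM too, so control 24, at 15.5 CPM, also lay inside that range. The mean of the operated groups differed from control by -0.43 ± 0.21 (log2, SE; adjusted p = 1.00 by edgeR), and by -0.70 without control 2, control 9 and PLATE 1 (adjusted p = 0.435 by edgeR). That setting leaves out the lowest control libraries of this gene, control 2 and control 9, and the highest PLATE library. ACKR2, a scavenger of inflammatory CC chemokines on lymphatic vessels, stood at 0.0647 CPM (1 count) in PLATE 1 and between 0.259 and 2.44 elsewhere. ACKR4, which removes CCL19 and CCL21, had 1.79 to 3.17 CPM in the PLATE libraries. The sham libraries had 1.40 to 1.65 CPM, the acellular ones 0.403 to 1.50 and the control ones 0.450 to 4.14. Its PLATE libraries were above all sham and all acellular libraries, and the PLATE and acellular difference was 1.20 ± 0.66 (log2, SE; adjusted p = 0.875 by edgeR). Of all genes, 7.91% had all PLATE libraries above all sham libraries and 3.27% had them above all acellular libraries.

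Of the 3 members that did not pass the filter, CCL20, the ligand of CCR6, had 58 counts in all and 0 to 17 per library, and CCR9, a homing receptor of gut lymphocytes, had 82. CCR10, a homing receptor of skin lymphocytes and plasma cells, had 10 counts over all libraries. At this depth no difference in them could be read.

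By edgeR, 0 of the 25 members and 0 of all 10942 genes (0%) passed an adjusted p of 0.05 in each of the 7 comparisons. Sham, acellular and PLATE share the control libraries, and their comparisons with control are given side by side. Against control, an unadjusted p under 0.05 was reached by 1 of 25 members in sham (CCL2, lower; 2.98% of all genes), by 6 in acellular (CXCL9, CXCL10, CXCL11, CXCR6, CX3CL1 and CX3CR1, all higher; 6% of all genes, and 1.77% when only higher genes are counted), and by 6 in PLATE (CXCL5, CCL11, CCL22, CCR1, CXCR5 and CXCR6, all higher; 4.39% of all genes, 3.3% higher). DESeq2 gave 2 of the 25 members, CCR1 and CXCL13, no adjusted p in any of the 7 comparisons. It called 0 members in these 3 comparisons (0%, 0.0914% and 0% of all genes), and limma voom also called 0 (0% each). No member was separated from control in all libraries of a group, against 1.9%, 0.704% and 0.0274% of genes with all values higher in sham, acellular and PLATE, and 1.79%, 1.02% and 0.0914% with all values lower.

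These counts leaned on single libraries. In acellular the 6 members were 2 without acellular 8 or without acellular 10 and to 3 without control 16 or control 24, and were 10 without control 2, control 9 and PLATE 1. In PLATE the 6 were 1 without PLATE 1, 3 without control 16, control 25 or control 29, and 15 without control 9. In sham the 1 was 0 without control 24, sham 11 or sham 14, and 2 without sham 12.

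The median log2 difference from control of the 25 members was -0.35 in sham, 0.29 in acellular and 1.16 in PLATE, beside -0.06, -0.03 and -0.01 for all genes tested. The SD of the libraries' own member medians within groups was 0.66, 0.82 and 0.70 in these comparisons. The sham and acellular medians were smaller than that SD. It is a spread between single libraries and not the error of a group difference, so it tests none of the medians. A difference above 0 was found for 7 members in sham (42.1% of all genes), 14 in acellular (45.8%) and 21 in PLATE (47.7%). Without PLATE 1 the PLATE median was 0.40. Without acellular 10 the acellular median was -0.33, and without control 9 the sham median was -0.15. By role, the 3 interferon-inducible ligands had a median of -0.35 in sham, 1.97 in acellular and 1.29 in PLATE, and the 5 homeostatic ligands -0.30, -0.20 and 0.09. The 4 CXC receptors had -0.47, 0.51 and 1.35, and the 3 CC receptors -0.90, -0.17 and 1.91. The 3 atypical receptors had -0.06, -0.62 and -0.30. These role medians were not taken without PLATE 1, the highest library for CCR1, CCR6, CXCR4 and CXCR5. Without it, PLATE differed from control by -0.19 for CCR1 and -0.23 for CXCR5, whereas CXCR6 stayed above 0.

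**Figure D4:**
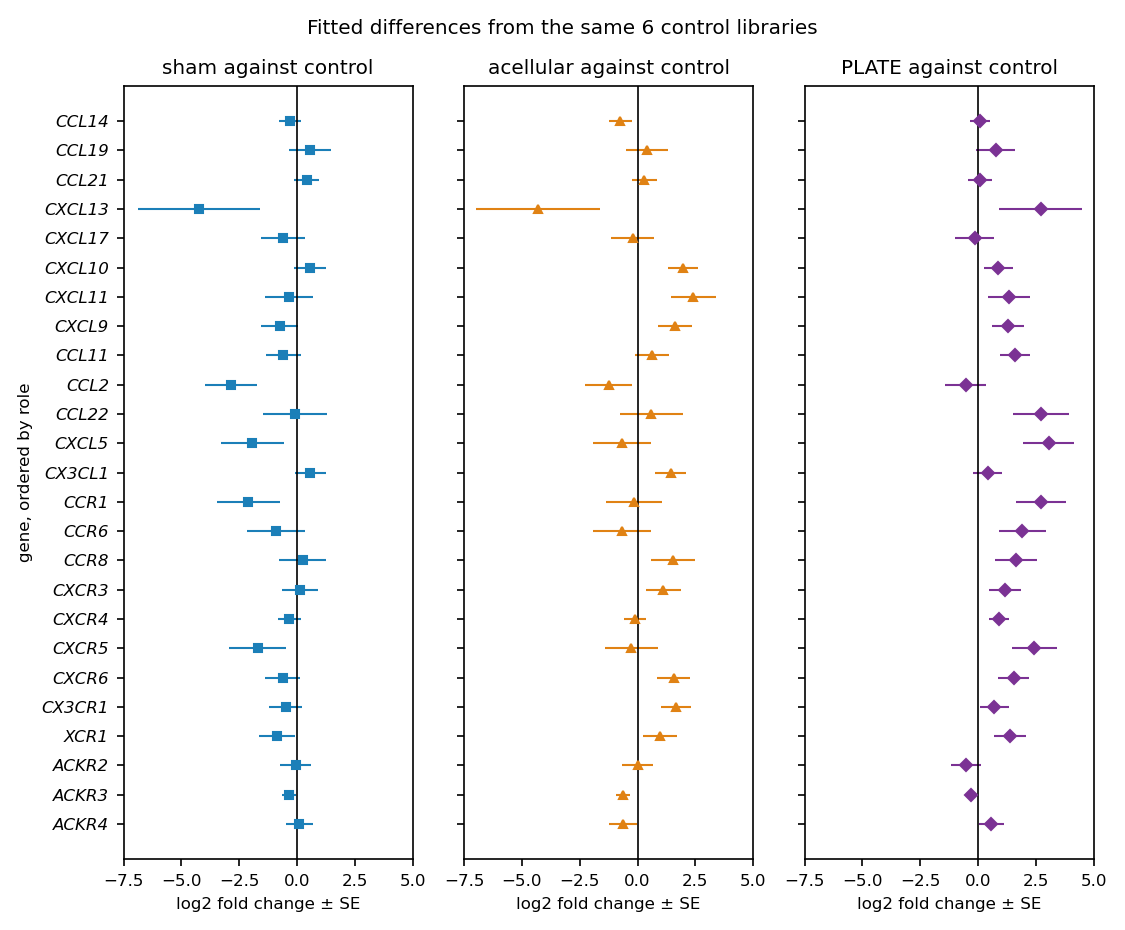
Log2 difference from the same 6 control libraries for 25 members in sham, acellular and PLATE; points are edgeR estimates and bars 1 SE. The interferon-inducible ligands lie right of 0 in acellular and PLATE, and CXCL5, CCR1, CCL22 and CXCL13 lie farthest right in PLATE.

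Against sham, which also was operated, the graft groups stood higher for most members. An unadjusted p under 0.05 in edgeR was reached by 4 of 25 members in acellular (CXCL9, CXCL11, CXCR6 and CX3CR1, all higher; 4.87% of all genes, 1.76% higher) and by 9 in PLATE (CXCL5, CXCL9, CXCL13, CCL11, CCR1, CXCR4, CXCR5, CXCR6 and XCR1, all higher; 7.5% of all genes, 5.85% higher). All acellular libraries were above all sham libraries for 2 of 25 members (8%), CXCR6 and CX3CR1, beside a like share of all genes (7.82%). All PLATE libraries were above all sham libraries for 7 of 25 members (28%), namely CXCL9, CCL11, CXCR3, CXCR6, CX3CR1, XCR1 and ACKR4, beside 7.91% of all genes. For no member were all values lower, beside 10.5% and 6.95% of genes. Limma voom with library quality weights called CXCR6 (2.45) and CX3CR1 (2.00) in acellular against sham with an adjusted p of 0.0495 for both (72 genes, 0.658%). Their adjusted p over the other settings ran from 0.167 to 1.00, and DESeq2 called 0 members (0.00914% of genes). In PLATE against sham voom called 0 (0%) and DESeq2 0 members (0.128% of genes). CCR1 and CXCL13, which had no adjusted p in DESeq2, could not be called by it.

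The median difference from sham was 0.99 in acellular and 1.40 in PLATE, beside 0.02 and 0.03 for all genes, and 19 and 22 of the 25 members were above 0 (52.2% and 52.6% of all genes). The acellular median was 0.14 without acellular 10, and the PLATE median 0.85 without PLATE 1. The 4 members in acellular were 1 without acellular 8 or sham 14 and 2 without sham 11 or sham 12. The 9 members in PLATE were 2 without PLATE 1 and 4 without sham 11 or sham 14. CXCL9, CXCR6 and XCR1 differed from sham by 2.30, 1.92 and 2.05 without PLATE 1, beside 2.04, 2.15 and 2.24 with it.

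Between the graft groups, CXCL5 and CXCL13 were the 2 members with an unadjusted p under 0.05 in edgeR, both higher in PLATE (4.71% of all genes, 3.61% higher), and 0 remained without PLATE 1 or without acellular 8. The count was 1 without acellular 6, 6 without acellular 10, and 5 without PLATE 5, PLATE 9 or PLATE 13. DESeq2 called 0 members (0.00914% of genes) and voom 0 (0%). ACKR4 was the 1 member of 25 (4%) with all PLATE libraries above all acellular libraries, beside a like share of all genes (3.27%). No member had them all below, beside 1.7%. The median difference was 0.36, with 17 of 25 members above 0 (52.4% of all genes, median 0.02), and it was 0.00 without PLATE 1. CXCL9, CXCL10 and CXCL11 were all lower in PLATE on average, by -0.35 ± 0.82, -1.10 ± 0.75 and -1.09 ± 1.09 (log2, SE; adjusted p = 0.965, 0.875 and 0.895 by edgeR).

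For the operated groups together against control, CCL2 was the 1 member with an unadjusted p under 0.05 in edgeR (lower; 3.88% of all genes, 3.01% lower). The count was 7 without control 9 and 5 without PLATE 1. It was 2 without acellular 6, acellular 10 or PLATE 9, and 0 without control 16, control 24, sham 14, acellular 8, PLATE 5 or PLATE 13. DESeq2 called 0 members (0.00914% of genes) and voom 0 (0%). CXCL10 was higher in the operated mean by 1.13 ± 0.53 (log2, SE; adjusted p = 1.00 by edgeR). No member was separated from control, beside 0% of genes higher and 0.00914% lower. The median was 0.26, with 19 of 25 members above 0 (44.6% of all genes, median -0.03).

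Ligands and receptors were then compared across the 16 libraries. Of 21 textbook pairs, 5 had both genes among those tested, and p-values come from permutation tests with 100000 resamples, two-sided, on log2 CPM. CXCL11 and CXCR3 had a Pearson r of 0.92 (permutation p = 1e-05, the smallest these resamples can give; adjusted over the 5 pairs 5e-05) and a Spearman rho of 0.84 (permutation p = 0.00014, adjusted 0.0005). CXCL9 and CXCR3 had an r of 0.77 (permutation p = 2e-05, adjusted 5e-05) and a rho of 0.82 (permutation p = 0.0002, adjusted 0.0005). CXCL10 and CXCR3 had an r of 0.84 (permutation p = 0.00063, adjusted 0.000787) and a rho of 0.61 (permutation p = 0.0133, adjusted 0.0133). Without control 2 and the highest acellular library of the ligand, r was 0.78 for CXCL11, 0.82 for CXCL9 and 0.58 for CXCL10. After group means were taken off, r was 0.91, 0.75 and 0.84.

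CX3CL1 and CX3CR1 had an r of 0.68 (permutation p = 0.00321, adjusted 0.00321) and a rho of 0.70 (permutation p = 0.00371, adjusted 0.00618), and r was 0.79 without PLATE 1 and control 2. It was 0.71 after group means were taken off. CXCL13 and CXCR5 had an r of 0.85 (permutation p = 0.00024, adjusted 0.0004) and a rho of 0.64 (permutation p = 0.00998, adjusted 0.0125). Without PLATE 1 and control 9 that r was 0.48, so the CXCL13 relation rests on those libraries. Without control 2, control 9 and PLATE 1 it was 0.51 (permutation p adjusted 0.0779), whereas the other 4 pairs ranged from 0.79 to 0.95.

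For each pair, some other genes followed the ligand more closely than its receptor did. Ranked by rho with the ligand over 10941 genes, the receptor came 38th for CXCL11, 58th for CXCL9, 242nd for CXCL10, 136th for CX3CL1 and 206th for CXCL13. The 6 libraries with the highest sums of T cell markers (PLATE 1, control 9, PLATE 13, acellular 10, acellular 8 and PLATE 5) were also the 6 with the highest CXCR3 levels. The part of cell makeup in the correlations was not tested.

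**Figure D5:**
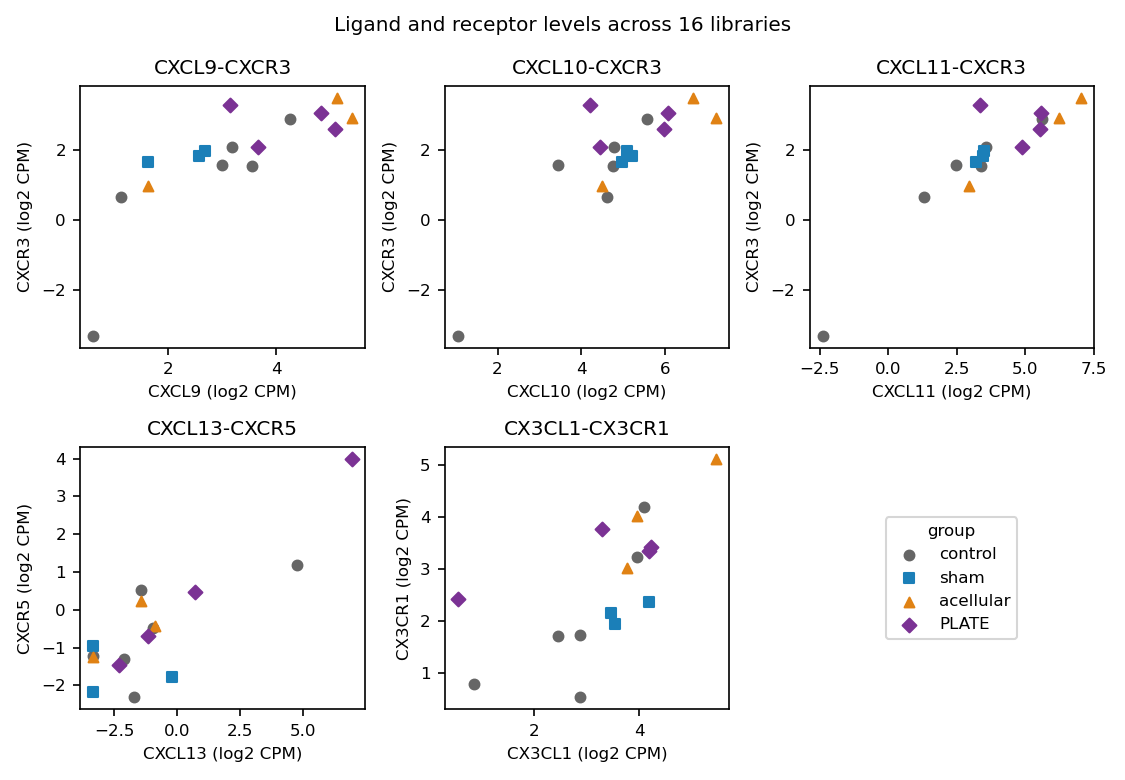
Ligand (horizontal axis) against receptor (vertical axis), both in log2 CPM, for 5 pairs in 16 libraries coloured by group. CXCL11 and CXCR3 have an r of 0.92 over all libraries, whereas the CXCL13 and CXCR5 panel has PLATE 1 and control 9 far from the rest.

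Other genes of chemokine induction, signalling and leukocyte entry were counted from lists. None of the lists had a member past the threshold in edgeR, higher or lower, in any of the 7 comparisons. The counts of genes above 0 are given for sham, acellular and PLATE against control, for PLATE against sham and for PLATE against acellular, in that order, where 42.1%, 45.8%, 47.7%, 52.6% and 52.4% of all genes were above 0. Of 19 genes that carry the receptor signal they were 2, 9, 16, 17 and 19. Of 11 leukocyte adhesion genes they were 1, 7, 10, 11 and 10. Of 9 inducing transcription factors and feedback genes they were 2, 7, 8, 8 and 7, and of 6 inducing cytokines 1, 3, 6, 5 and 5. Of 10 genes of chemokine processing and presentation they were 5, 3, 8, 8 and 8, and of 11 other chemoattractants and their receptors 3, 2, 8, 9 and 9. In acellular against sham, 52.2% of all genes were above 0. The counts there were 14 for receptor signalling, 9 for adhesion and 8 for transcription factors and feedback. They were 4 for the cytokines, 4 for processing and presentation and 6 for the other chemoattractants.

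Without PLATE 1, a setting chosen after the data were seen, the 3 PLATE counts of the receptor signalling genes were 11, 13 and 14 (45.1%, 50.2% and 51.6% of all genes) and those of the adhesion genes 7, 10 and 6. They were 8, 8 and 3 for the transcription factors and 2, 4 and 3 for the 5 cytokines that could then be tested. The processing genes had 6, 7 and 7 above 0 and the other chemoattractants 4, 7 and 6. PIK3CG, the phosphoinositide kinase below chemokine receptors, averaged 98.6 ± 133 CPM in PLATE (SD, n = 4) with 297 in PLATE 1 and 26.2 to 41.7 in the others, and 14.4 ± 1.76 in sham (SD, n = 3), a difference of 2.77 ± 0.79 (log2, SE; adjusted p = 0.657 by edgeR), and of 1.17 ± 0.44 without PLATE 1 (adjusted p = 1.00).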

How the data were processed

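Stranded polyadenylated RNA libraries were made per the labels' protocols. The submitters' processing notes name FastQC, HISAT2 2.2.1 and featureCounts as the authors' tools. Build, annotation and strand setting are not given in the sources used here. The deposited table holds raw counts per gene symbol, per the file headers, and 1 line without a name, 22.9 to 28.5% of a library's counts, which was left out. Columns were matched to samples by their trailing index, because the middle number in the descriptions is the same for all samples.

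Genes were filtered with filterByExpr (minimum count 10), scaled by TMM and tested with edgeR 4.0.16 in R 4.3.3 (quasi-likelihood F test, 16 libraries, 4 group means, 12 residual degrees of freedom), with Benjamini-Hochberg adjustment over 10942 genes and a threshold of 0.05. The operated mean weights sham, acellular and PLATE equally. Log2 CPM used a prior count of 2. Alternatives were DESeq2 1.42.0 size factors and Wald test, limma 3.58.1 voom with quality weights, no filter, the unnamed line in library sizes, only the groups compared, and libraries left out. Only the edgeR fit of PLATE against control was tested on simulated counts, in which no library was made to lie apart. Control 9 and PLATE 9 were treated as independent. The labels give each library an animal number, so p-values measure the spread between animals as far as these numbers tell them apart.

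Members and lists were chosen with earlier results of these data known. Every sham, acellular and PLATE library is given for the 3 members with the smallest p in each comparison. The same holds for members of ligand and receptor pairs with an adjusted p under 0.05. Control is given by its range and median for these members. Other genes were named after their values were seen. Gene neighbours come from RefSeq (27 of 28 members matched, all but CXCL5). No sequences are printed.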

Additional observations from a re-analysis of the deposited data

Results flagged for a closer look

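Within the control group (n = 6) and the PLATE group (n = 4), the highest or the lowest library was set against the rest on log2 CPM with Dixon's gap test at 95%, in 50 combinations of gene and group, of which chance gives about 1 in 20. A library lay apart in 7. In PLATE 1, ACKR2 was lowest with 0.0647 CPM (1.10 to 1.18 in the other PLATE libraries), ACKR4 was highest with 3.17 CPM (1.79 to 1.87) and CXCR4 was highest with 107.8 CPM (21.5 to 25.1). In control 2, CXCL17 was lowest with 2.16 CPM (167 to 628 in the other control libraries) and CXCR3 was lowest with 0 CPM (1.49 to 7.40). In control 9, CXCL13 was highest with 27.2 CPM (0 to 0.415). In PLATE 9, CCR8 was lowest with 0.680 CPM (1.57 to 1.81). CXCL5 and CCR1, with 318 and 72.9 CPM in PLATE 1, did not reach the critical value among the 4 PLATE libraries, where the other values were themselves spread.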

How the results depend on the processing

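The count of members past the threshold was 0 under all settings run except limma voom in acellular against sham, with 2 (CX3CR1 at 2.00 and CXCR6 at 2.45). Over libraries left out in turn, the member median ran from 0.14 to 1.37 in acellular against sham, 0.40 to 1.59 in PLATE against control and 0.85 to 1.76 in PLATE against sham, and the last was 0.83 without control 2, control 9 and PLATE 1. CXCL13 in sham against control ran from -9.57 to 0.33, CCR1 in PLATE against control from -0.19 to 3.12 and CXCR5 from -0.23 to 3.07. CXCR5 in PLATE against acellular was -0.14 with voom. Beyond these, 189 values of single members with 1 library left out kept their direction and side of the threshold. So did 134 values under the other settings. No paired analysis was possible because control and PLATE share only the number 9 and no other groups share one. Groups of 3 and 4 animals, a common biological coefficient of variation of 0.440 and members with few counts limit what could be told apart.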
